A study of Mus musculus with 57 samples.

Results

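Autophagy genes were followed in mouse hearts exposed to doxorubicin (Doxo), an anthracycline that damages the heart, with or without nicotinamide mononucleotide (NMN), a precursor of NAD+. The set holds 10 genes chosen by symbol: *Tfeb*, *Ulk1*, *Becn1*, *Atg5*, *Atg7*, *Map1lc3b*, *Gabarapl1*, *Sqstm1*, *Bnip3l* and *Lamp2*. All 10 were present among the 25416 genes of the acute count table and the 54658 genes of the chronic one, and all 10 passed the low-count filter in both. Gene expression was measured by RNA-seq of poly(A) RNA from whole frozen hearts.

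All animals were male wild-type C57BL6/J mice. In the acute study the Doxo group (n = 13) received a single i.p. injection of 20 mg/kg Doxo, the Doxo-NMN group (n = 13) the same injection plus 180 mg/kg/day NMN i.p. from 5 days before it, and the Ctrl group (n = 14) saline. These mice were bought at 9 weeks of age and hearts were taken on day 5, 2 h after the last NMN injection. In the chronic study mice of 14 to 16 weeks received 5 injections of 4 mg/kg Doxo, 20 mg/kg in all (Doxo, n = 6), these injections with NMN dissolved in the water they drank, at 500 mg/kg/day (Doxo-NMN, n = 6), or PBS (Ctrl, n = 5). Their hearts were taken on day 60 after the first injection. No group received NMN without Doxo, and the hearts are those of mice alive at these times. The acute and chronic studies differed in age, regimen, route of NMN, animal site and sequencing site, which cannot be told apart.

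Autophagy is the route by which a cell encloses its own proteins and organelles in a membrane, the autophagosome, and delivers them to the lysosome for digestion. The ULK1 kinase complex starts it, a lipid kinase complex around Beclin 1 (*Becn1*) nucleates the membrane, and the ATG7 and ATG5 enzymes attach proteins of the ATG8 family, among them LC3B (*Map1lc3b*) and GABARAPL1, to that membrane. Cargo is brought in by receptors such as p62 (*Sqstm1*) and, for mitochondria, BNIP3L. LAMP2 sits in the lysosomal membrane, and TFEB is a transcription factor of lysosome and autophagy genes. In heart muscle, whose cells rarely divide, this turnover helps to remove damaged mitochondria. Messenger levels do not measure autophagic flux, which was not assayed in these data.

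Total counts were 32409622 to 52102850 per acute heart and 17769886 to 23862287 per chronic heart, and values are given as CPM (a gene's counts per 1000000 counts of its library) with library sizes normalized by TMM. A count of 3, taken as the floor, was worth 0.0576 to 0.0926 CPM in the acute libraries and 0.126 to 0.169 CPM in the chronic libraries, for counting error only. The least abundant member in any heart had 164 counts, so all members lay far above it. Markers of ventricular cardiomyocytes were abundant in both studies and no list of cell type markers had a gene at 0 in every heart. Acute Doxo replicate 6 went against its label. On a scale over all tested genes where the Ctrl mean is 0 and the Doxo mean is 1 its position was 0.0544, inside the Ctrl range of −0.0539 to 0.0649. The remaining 12 Doxo hearts had positions of 0.452 to 1.45. Its summed red blood cell markers were 338 CPM against 1.19 to 3.85 CPM in the other 12. Chronic Doxo replicate 2 stood apart as well, at 2.10 on the same scale built for the chronic study, where the other 5 Doxo hearts reached at most 0.907. Chronic Ctrl replicate 1 lay at −0.332 on that scale, against 0.0548 to 0.109 in the other 4 Ctrl hearts. It was also the lowest of them for *Ulk1*, at 51.4 CPM against 81.8 to 103 CPM. Fold changes that rested on acute Doxo replicate 6 or chronic Doxo replicate 2 are given with and without that heart, correlations only where stated.

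Levels of the members were compared within Ctrl hearts per kb of exon length, taken as all annotated exons of a gene merged. This length ran from 2013 bases for *Gabarapl1* to 9552 for *Lamp2*, with 3356 for *Sqstm1*, 7065 for *Becn1* and 7517 for *Map1lc3b*. It can exceed the length of the transcripts present in the heart, so the order depends on this choice. In acute Ctrl hearts (n = 14) *Sqstm1* was the most abundant at 91.3 ± 9.49 CPM per kb (SD), followed by *Gabarapl1* at 44.9 ± 4.13, *Map1lc3b* at 25.04 ± 1.61 and *Lamp2* at 19.4 ± 1.24. *Bnip3l* (16.5 ± 0.899), *Ulk1* (13.9 ± 0.953), *Atg5* (7.04 ± 0.487), *Becn1* (5.23 ± 0.326), *Tfeb* (4.27 ± 0.344) and *Atg7* (2.56 ± 0.207 CPM per kb) followed. On this measure the cargo receptor and the ATG8 genes lay above the enzymes and regulators, and the ranges of neighbours in this order overlapped only for *Lamp2* with *Bnip3l*, *Bnip3l* with *Ulk1* and *Becn1* with *Tfeb*. In chronic Ctrl hearts (n = 5) *Sqstm1* (137 ± 16.6 CPM per kb), *Gabarapl1* (41.4 ± 5.15), *Map1lc3b* (23.9 ± 2.74) and, at the other end, *Atg7* (2.93 ± 0.127) held the same places, and *Tfeb* at 7.70 ± 0.719 CPM per kb stood above *Becn1* (5.90 ± 0.534) and *Atg5* (4.91 ± 0.432).

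The promoters were searched for motifs of factors that act on autophagy genes, because members moved in both directions. RefSeq windows on GRCm38.p6, from 250 bases before to 50 after a start, were given for 8 of the 10 members (10 windows, 3 of them of *Tfeb*); *Becn1* and *Bnip3l* had none. Both strands were read. The E-box CACGTG, the core bound by TFEB and related factors, was found in 2 members, *Atg7* and *Atg5*, and in 7.15% of all 32851 windows. The antioxidant response element core TGACNNNGC was found in *Map1lc3b* and in 12.4% of windows. The following stretches are shown because they hold these matches, with the motif in capitals, on the plus strand.
Atg7, chr6:114670937-114670996, E-box starting 132 bases before the start: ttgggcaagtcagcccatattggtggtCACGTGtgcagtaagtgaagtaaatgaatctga
Atg5, chr10:44268279-44268338, E-box starting 14 bases before the start: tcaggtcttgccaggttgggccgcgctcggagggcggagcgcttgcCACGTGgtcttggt
Map1lc3b, chr8:121590432-121590461, element at base 5 after the start: gcgagtcaccTGACTCGGCtgcggactgag

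The *Atg7* window belongs to a start inside the gene as GENCODE annotates it. No member window held the CLEAR core TCACGTGA, which contains the E-box (0.974% of all windows), the FOXO element GTAAACA (3.65%) or the CARE element TGATGNAA (3.97%). These are matches of letters within short windows and no binding was measured.

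The first comparison asked what a single high dose of Doxo did to these transcripts at day 5. The cargo receptor and ATG8 genes rose most: *Sqstm1* was 3.53-fold, *Map1lc3b* 2.37-fold and *Gabarapl1* 1.98-fold higher in Doxo than in Ctrl hearts. *Ulk1*, *Becn1*, *Atg7*, *Bnip3l* and *Lamp2* rose by 1.21- to 1.45-fold, whereas *Tfeb* and *Atg5* fell to 0.654 and 0.745 of the Ctrl level. All 10 members passed the edgeR quasi-likelihood test at an adjusted p under 0.05, 8 higher and 2 lower, in a comparison in which 34.8% of all 14240 tested genes were higher and 33.3% lower. At the additional fold limit of 1.5, which 30.1% of all genes passed, 4 of the 10 remained: *Sqstm1*, *Map1lc3b* and *Gabarapl1* higher and *Tfeb* lower. The median log2 fold change of the members was 0.50, beside −0.00 over all genes. *Bnip3l* is among the genes that the study itself chose from the acute hearts, and *Sqstm1* among those it chose from the chronic hearts, so these are not independent evidence of direction there.

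**Figure D1:**
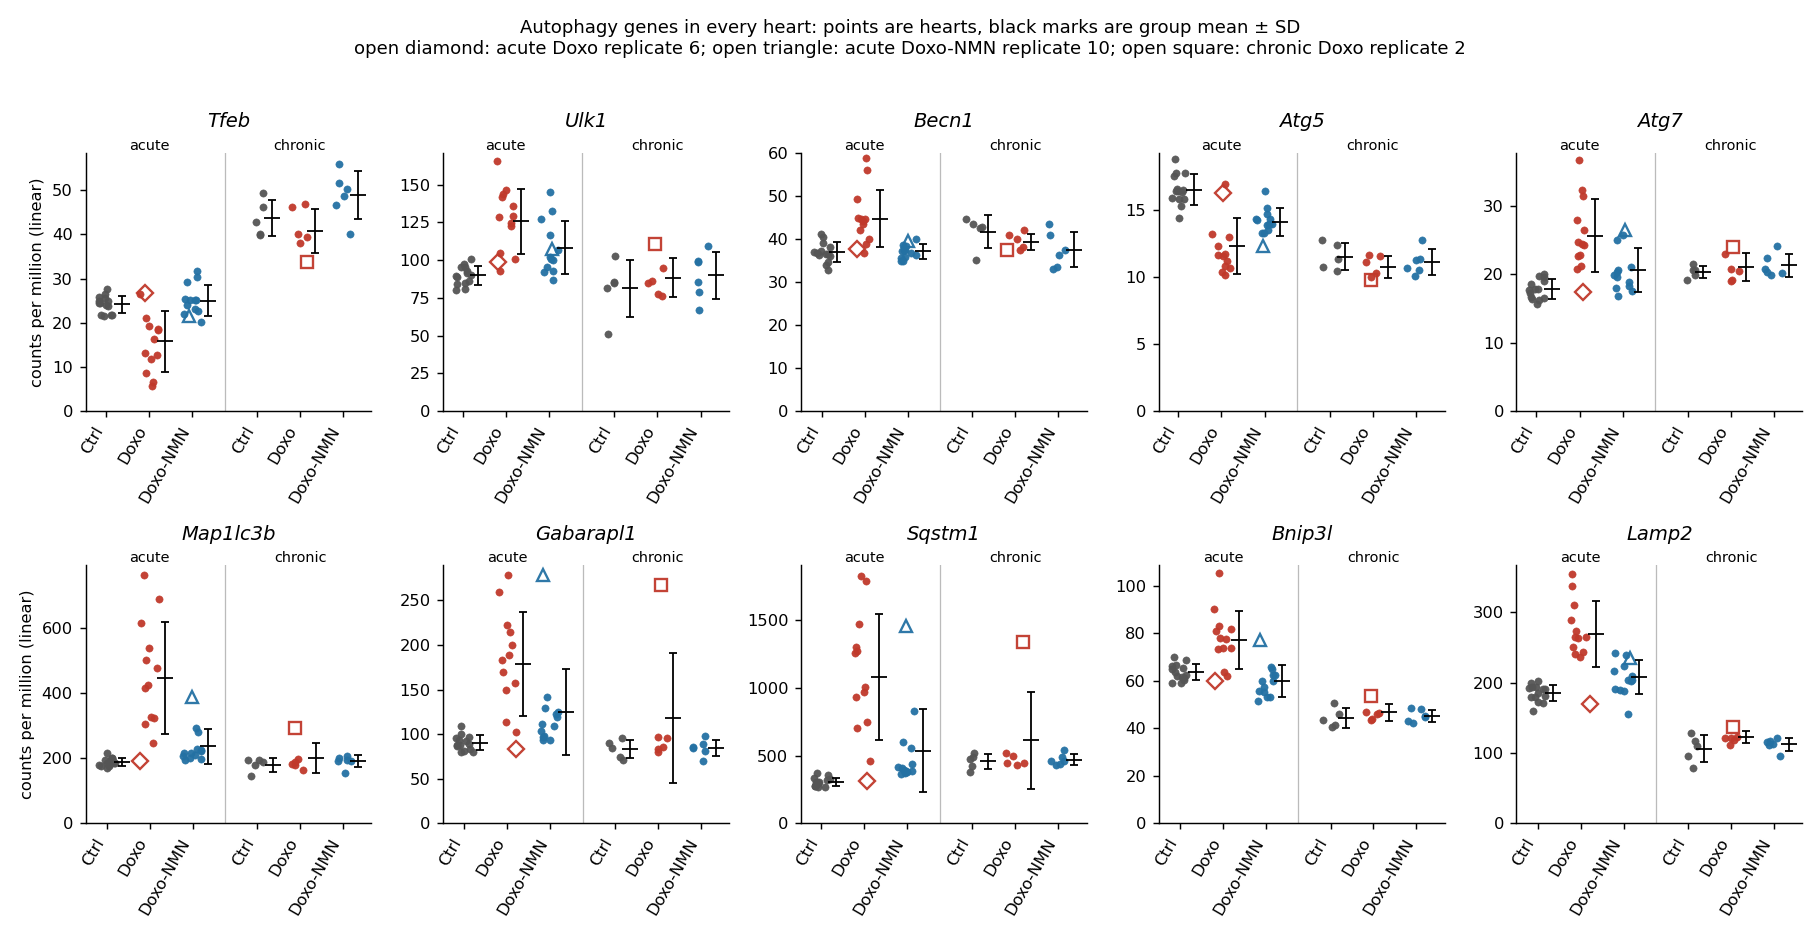
CPM (linear axis from 0) of each autophagy gene in every heart, by study and group, with the group mean ± SD in black (acute n = 14, 13 and 13; chronic n = 5, 6 and 6). Acute Doxo hearts spread upward for 8 genes and downward for *Tfeb* and *Atg5*, acute Doxo replicate 6 (open diamond) lies among the Ctrl hearts, and chronic Doxo replicate 2 (open square) stands at 1336 CPM for *Sqstm1* and 267 CPM for *Gabarapl1*.

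*Sqstm1* (ENSMUSG00000015837, GRCm38 chr11:50199366-50210827, minus strand) encodes p62, which binds ubiquitinated cargo and LC3 and is itself degraded by autophagy. It ranged from 268 to 370 CPM in acute Ctrl hearts (median 302) and from 315 to 1830 CPM in Doxo hearts (median 1005). The lowest of these was replicate 6, and the other 12 Doxo hearts, from 463 CPM upward, all lay above the highest Ctrl heart. The log2 fold change was 1.82 ± 0.21 (SE; adjusted p = 2.25e-09), and 1.90 without replicate 6.

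*Map1lc3b* (ENSMUSG00000031812, chr8:121590361-121598760, plus strand) encodes LC3B, the protein whose lipid-bound form marks autophagosomes. It ranged from 170 to 215 CPM in Ctrl hearts (median 186) and from 191 to 763 CPM in Doxo hearts (median 424). Again 12 of 13 Doxo hearts exceeded every Ctrl heart, replicate 6 being the other. The log2 fold change was 1.25 ± 0.14 (adjusted p = 1.64e-09). Its exons overlap *Zcchc14* on the opposite strand, a gene at a mean of 51.03 CPM in acute hearts that was also higher in Doxo (log2 fold change 0.45, adjusted p = 8.98e-05), and whether counting used strand is not given in the sources used here, so reads from the overlap cannot be told apart.

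*Gabarapl1* (ENSMUSG00000030161, chr6:129533160-129542346, plus strand), another ATG8 gene, ranged from 79.6 to 109 CPM in Ctrl hearts (median 88.7) and from 83.4 to 278 CPM in Doxo hearts (median 184). Here 11 of 13 Doxo hearts lay above all Ctrl hearts, and replicates 5 and 6 lay within their range. The log2 fold change was 0.98 ± 0.15 (adjusted p = 3.24e-07).

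Among the genes that build the autophagosome, *Ulk1* (ENSMUSG00000029512, chr5:110784488-110810097, minus strand), the initiating kinase, ranged from 80.5 to 101 CPM in Ctrl hearts (median 90.0) and from 93.1 to 166 CPM in Doxo hearts (median 129), a log2 fold change of 0.48 ± 0.08 (adjusted p = 9.82e-07). *Becn1* (ENSMUSG00000035086, chr11:101285952-101302286, minus strand), the scaffold of the lipid kinase complex, ranged from 32.9 to 41.2 CPM in Ctrl hearts (median 36.7) and from 36.9 to 58.8 CPM in Doxo hearts (median 44.2), a log2 fold change of 0.28 ± 0.05 (adjusted p = 1.97e-05). Of the 13 Doxo hearts, 11 exceeded every Ctrl heart for *Ulk1* and 9 for *Becn1*.

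The conjugation enzymes went opposite ways. Whether the E-box in the window of each, printed above, bears on its level was not tested. *Atg7* (ENSMUSG00000030314, chr6:114643097-114860614, plus strand), the E1-like enzyme that activates ATG8 proteins and ATG12, ranged from 15.6 to 20.1 CPM in Ctrl hearts (median 17.8) and from 17.4 to 36.7 CPM in Doxo hearts (median 24.4), with all Doxo hearts but replicate 6 above the Ctrl range and a log2 fold change of 0.52 ± 0.08 (adjusted p = 9.87e-07). *Atg5* (ENSMUSG00000038160, chr10:44268358-44364291, plus strand), which is joined to ATG12 to form part of the ligase, ranged from 14.4 to 18.9 CPM in Ctrl hearts (median 16.5) and from 10.2 to 16.97 CPM in Doxo hearts (median 11.7). For *Atg5*, 11 of 13 Doxo hearts lay below the lowest Ctrl heart, replicates 6 and 7 were within the range, and the log2 fold change was −0.42 ± 0.06 (adjusted p = 2.75e-07).

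*Tfeb* (ENSMUSG00000023990, chr17:47737030-47792419, plus strand) showed the widest relative spread of the members in Doxo hearts. It ranged from 21.5 to 27.7 CPM in Ctrl hearts (median 24.5) and from 5.73 to 26.8 CPM in Doxo hearts (median 16.3). Below the lowest Ctrl heart lay 11 of 13 Doxo hearts, with replicates 4, 5 and 10 under 10 CPM at 5.73, 6.52 and 8.65 CPM. The log2 fold change was −0.61 ± 0.15 (adjusted p = 0.00048). The SD was 43.2% of the mean in Doxo hearts and 8.06% in Ctrl hearts.

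*Lamp2* (ENSMUSG00000016534, chrX:38401357-38456454, minus strand), a lysosomal membrane protein needed for fusion with autophagosomes, ranged from 160 to 203 CPM in Ctrl hearts (median 188) and from 169 to 354 CPM in Doxo hearts (median 265), a log2 fold change of 0.54 ± 0.07 (adjusted p = 4.52e-08). *Bnip3l* (ENSMUSG00000022051, chr14:66985239-67008877, minus strand), a mitophagy receptor also known for clearing mitochondria from maturing red blood cells, ranged from 59.0 to 70.1 CPM in Ctrl hearts (median 63.1) and from 59.8 to 106 CPM in Doxo hearts (median 77.6), a log2 fold change of 0.28 ± 0.06 (adjusted p = 0.000216). For *Lamp2* 12 of 13 and for *Bnip3l* 10 of 13 Doxo hearts lay above the Ctrl range. A pseudogene, *Bnip3l-ps*, had a mean of 1.52 CPM in acute and 0.0839 CPM in chronic hearts, and how reads shared with it were assigned is not known.

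The numbers of Doxo hearts outside the Ctrl range were not counted over all tested genes, so they describe the members only. All 10 acute Doxo vs. Ctrl calls held under leaving out any heart and under every other alternative tried. Cell type markers also moved between these groups. All 5 red blood cell markers fell (summed median 1114 CPM in Ctrl, range 437 to 4311; 2.30 CPM in Doxo, range 1.19 to 338). All 5 tested neutrophil markers rose (2.502 CPM, 1.59 to 5.35, against 16.3 CPM, 2.84 to 276), and 5 of 6 ventricular cardiomyocyte markers fell while 1 rose (62818 CPM, 55346 to 71249, against 51313 CPM, 27645 to 72445). Of 9 macrophage markers 4 fell and 1 rose (362 against 266 CPM; 297 to 424 and 143 to 408), of 5 fibroblast markers 3 fell and 1 rose (902 against 819 CPM; 575 to 1118 and 500 to 1344), and of 5 endothelial markers 1 rose and 1 fell (644 against 629 CPM; 604 to 801 and 417 to 781). In bulk tissue, fewer cells of a type and less RNA per cell cannot be told apart, and the part of these changes in the members' values was not tested. Atrial markers ranged widely within every group, with 1 of 4 lower in Doxo and summed medians of 2451 CPM in Ctrl (43.9 to 4922) and 54.3 CPM in Doxo (32.5 to 1677), so the comparison was repeated within hearts of high and of low atrial signal. All 10 members passed in the same direction among the 17 hearts with at least 100 CPM of the atrial gene *Myl4* (*Sqstm1* 1.63, *Map1lc3b* 1.09, *Tfeb* −0.50 on the log2 scale) and among the 23 hearts below it (*Sqstm1* 1.84, *Map1lc3b* 1.28, *Tfeb* −0.73). Of all tested genes 8864 of 14743 passed among the 17 hearts and 7817 of 14265 among the 23.

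The second acute comparison asked what NMN changed in mice given Doxo. All members shifted, *Sqstm1* and *Map1lc3b* most: they were lower in Doxo-NMN than in Doxo hearts, at 0.497 and 0.530 of the Doxo level, and *Tfeb* was 1.58-fold higher. All 10 members passed, 8 lower and 2 higher (*Tfeb* and *Atg5*), where 27.4% of all tested genes were lower and 25.7% higher. *Sqstm1*, *Map1lc3b* and *Tfeb* also reached 1.5-fold, which 17.1% of genes did. Markers of other cells moved too. All 5 red blood cell genes were lower with NMN than without it (summed median 1.42 CPM in Doxo-NMN hearts, range 0.209 to 2.81), which rested on Doxo replicate 6 at 338 CPM, and without that heart 0 of 5 passed the edgeR test, also at an unadjusted p under 0.05 (median log2 fold change −0.79; the other 12 Doxo hearts 1.19 to 3.85 CPM). Of the neutrophil genes 3 of 5 were lower (10.1 CPM, 4.89 to 32.1), of the ventricular cardiomyocyte genes 5 of 6 were higher and 1 lower (69206 CPM, 35750 to 81065), and of the macrophage genes 4 of 9 were higher (295 CPM, 224 to 435). Of 5 fibroblast genes 3 were higher and 2 lower (617 CPM, 462 to 1134), of 5 endothelial genes 2 were lower, with 1 also higher without replicate 6 (518 CPM, 448 to 694), and no atrial gene of 4 passed (59.2 CPM, 27.1 to 3459). The part of these changes in the members' values was not tested. This comparison shares its Doxo hearts with the first one, so a Doxo heart that is high in one makes the other look larger, and the sizes of both are given side by side without a test between them.

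*Sqstm1* ranged from 365 to 1461 CPM in Doxo-NMN hearts (median 407), where 1 of 13 hearts, replicate 10, exceeded the Doxo median of 1005 CPM. The log2 fold change against Doxo was −1.01 ± 0.21 (adjusted p = 0.000144). *Map1lc3b* ranged from 196 to 387 CPM (median 217), and all 13 Doxo-NMN hearts lay below the Doxo median (log2 fold change −0.92 ± 0.14, adjusted p = 4.01e-06). *Tfeb* ranged from 20.1 to 31.6 CPM (median 25.1), with all 13 hearts above the Doxo median (log2 fold change 0.66 ± 0.15, adjusted p = 0.00047). The ranges of Doxo and Doxo-NMN hearts overlapped for each of the 10 members, and the share of all tested genes that overlapped was not counted.

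The other members changed less. The log2 fold changes were −0.52 ± 0.15 for *Gabarapl1*, −0.37 ± 0.07 for *Lamp2*, −0.37 ± 0.06 for *Bnip3l* and −0.31 ± 0.08 for *Atg7*. They were −0.27 ± 0.05 for *Becn1*, −0.22 ± 0.08 for *Ulk1* and 0.20 ± 0.06 for *Atg5*, with adjusted p-values of these genes between 2.15e-05 (*Bnip3l*) and 0.0175 (*Ulk1*). *Ulk1* thus had the weakest call, and it was lost when only Doxo and Doxo-NMN hearts were fitted (adjusted p = 0.0536). Within hearts below 100 CPM of *Myl4*, *Ulk1* (−0.16) and *Gabarapl1* (−0.42) did not pass, and within those above it *Atg5* (0.13) did not, so 8 and 9 of 10 members passed in the same direction. Of all tested genes 5581 of 14265 and 5797 of 14743 passed in these subsets.

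**Figure D2:**
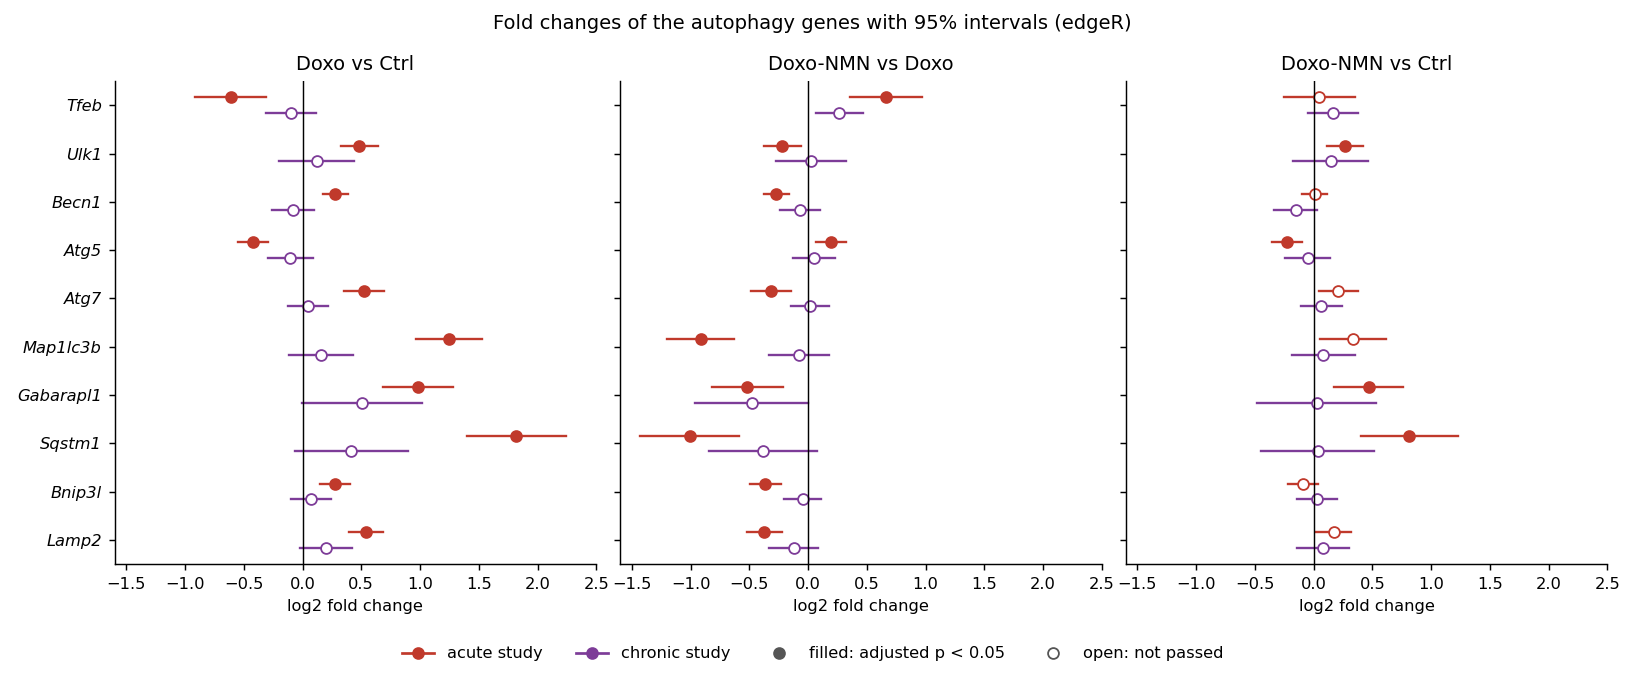
Log2 fold changes of the 10 autophagy genes with 95% intervals from edgeR in 3 comparisons, acute study in red and chronic study in purple; filled points passed an adjusted p of 0.05. All 10 acute points are filled for Doxo vs. Ctrl and for Doxo-NMN vs. Doxo, 4 for Doxo-NMN vs. Ctrl, and no chronic point is filled.

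Compared with Ctrl, Doxo-NMN hearts still differed for part of the set. *Sqstm1* was 1.76-fold, *Gabarapl1* 1.38-fold and *Ulk1* 1.20-fold higher, and *Atg5* was at 0.854 of the Ctrl level. These 4 of 10 members passed (3 higher, 1 lower), where 14.95% of all genes were higher and 11.1% lower, and *Sqstm1* alone reached 1.5-fold as 7.11% of genes did. For *Sqstm1* 11 of 13 Doxo-NMN hearts exceeded the highest Ctrl heart (log2 fold change 0.81 ± 0.20, adjusted p = 0.00314). For *Atg5* 10 of 13 lay below the lowest Ctrl heart, from 12.3 to 16.5 CPM with a median of 13.98 (log2 fold change −0.23 ± 0.06, adjusted p = 0.00622). *Gabarapl1* had 0.47 ± 0.15 (adjusted p = 0.016), which was lost without Doxo-NMN replicate 10 (0.31, adjusted p = 0.0598), and *Ulk1* had 0.26 ± 0.08 (adjusted p = 0.00966).

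The remaining 6 members did not pass in Doxo-NMN vs. Ctrl, which does not show that they were at the Ctrl level. The intervals of the log2 difference were 0.05 to 0.61 for *Map1lc3b*, 0.04 to 0.38 for *Atg7* and 0.02 to 0.31 for *Lamp2*, with adjusted p-values of 0.0719, 0.0562 and 0.0793. They were −0.10 to 0.12 for *Becn1*, −0.22 to 0.04 for *Bnip3l* and −0.25 to 0.35 for *Tfeb*. The first 3 intervals lay above 0 before adjustment, and those 3 genes passed when acute Doxo replicate 6, which enters only through the shared error, was left out (7 of 10 members). The count over all tested genes without that heart is not given here. Within hearts of low or of high *Myl4* alone, no member passed, where 1124 of 14265 and 1345 of 14743 tested genes did.

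One Doxo-NMN heart, replicate 10, differed from the other 12 of its group. It held 1461 CPM of *Sqstm1* against 365 to 827, 278 CPM of *Gabarapl1* against 93.1 to 142, 387 CPM of *Map1lc3b* against 196 to 292 and 77.1 CPM of *Bnip3l* against 51.4 to 65.7. It was also above the others for *Atg7* and below them for *Atg5*, and within their range for *Tfeb*, *Ulk1*, *Becn1* and *Lamp2*. Its summed ventricular cardiomyocyte markers were 35750 CPM, against 55479 to 81065 CPM in the other 12 hearts.

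Hearts of the same acute group varied together for many members. After the group means were subtracted, *Map1lc3b* and *Sqstm1* had a Pearson r of 0.90 over 40 hearts (0.87 without Doxo replicate 6), *Atg7* and *Map1lc3b* 0.84, and *Becn1* and *Map1lc3b* 0.82. Of the 28 pairs among the 8 genes that rose, 27 had a positive r (median 0.56, highest 0.90), the exception being *Ulk1* with *Lamp2* at −0.07. Without Doxo replicate 6 the count was 26, with a median of 0.44, *Ulk1* with *Lamp2* at −0.30 and *Gabarapl1* with *Lamp2* at −0.02. *Tfeb* or *Atg5* paired with those 8 genes had a negative r in all 16 pairs (−0.76 to −0.29, and −0.73 to −0.15 without Doxo replicate 6), and *Tfeb* with *Atg5* had 0.53. Hearts with more *Sqstm1* therefore tended to hold more *Map1lc3b* and less *Tfeb*. These values describe the same hearts, libraries and normalization. Relative to the group mean, the SD of every member was larger in Doxo than in Ctrl hearts. For *Sqstm1* and *Gabarapl1* it was larger still in Doxo-NMN hearts, replicate 10 included. For the other members it was largest in Doxo hearts. Doxo-NMN replicate 10 held 1461 CPM of *Sqstm1*, against 365 to 827 CPM in the rest of its group. For *Gabarapl1* it held 278 CPM, against 93.1 to 142 CPM. The SDs are not given without this heart, so a wider spread among the remaining Doxo-NMN hearts is not shown. The acute correlations were not repeated without Doxo-NMN replicate 10, which lay far above its group for *Sqstm1* and *Gabarapl1*.

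**Figure D3:**
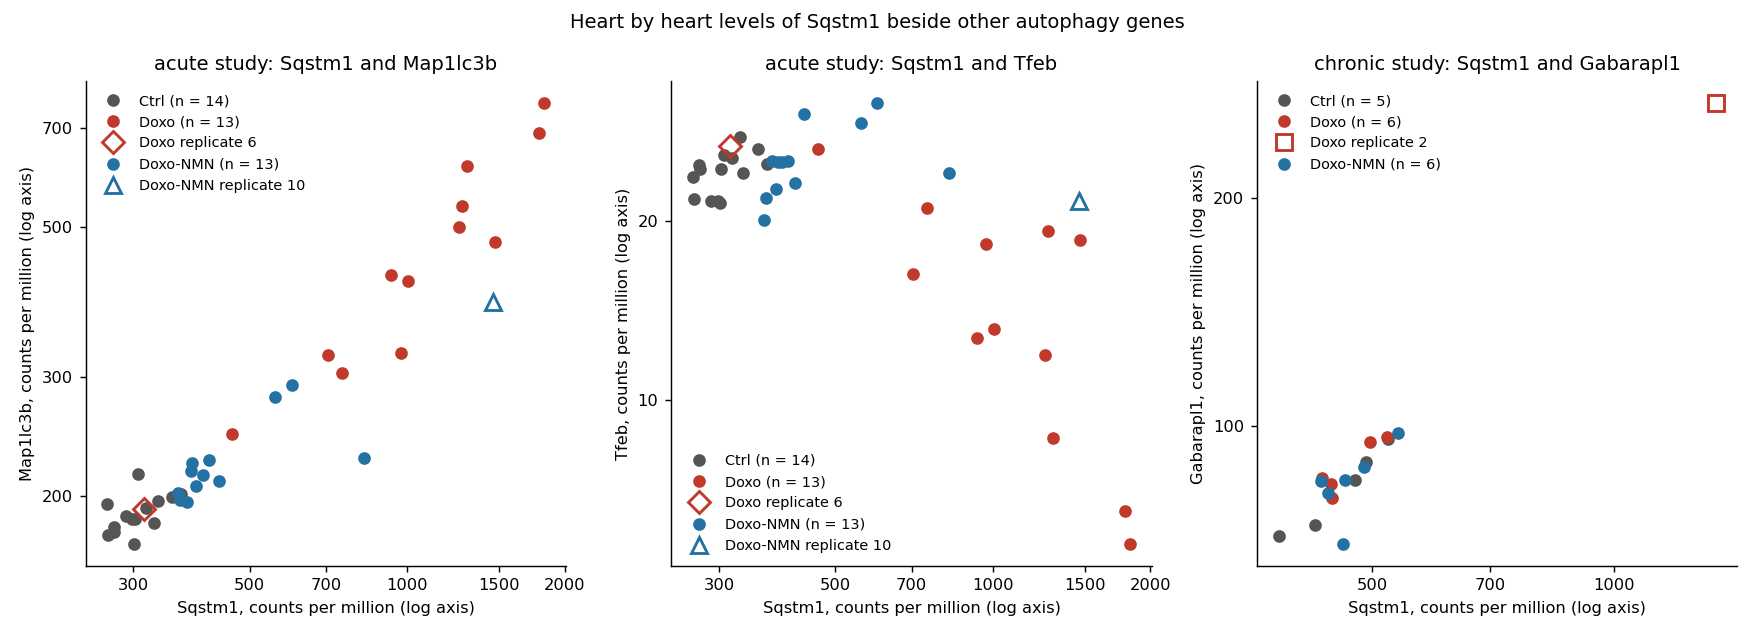
Each point is a heart, with *Sqstm1* on the horizontal and another autophagy gene on the vertical axis, both in CPM on log axes. In the acute study *Map1lc3b* increased and *Tfeb* decreased along *Sqstm1*, and Doxo replicate 6 sat with the Ctrl hearts. In the chronic study Doxo replicate 2 stood alone at 1336 CPM of *Sqstm1*.

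The genes most like each member over the 40 acute hearts were found by the same correlation. For *Sqstm1* they were *Psmd4* (r = 0.97) and *Psmc1* (0.96), and for *Map1lc3b* *Ubb* (0.95) and *Psmd4* (0.95), which are proteasome subunit genes and a ubiquitin gene. *Tfeb* was most like *Slc27a4* (0.96) and *Sh2b1* (0.94), *Atg7* like *Itm2b* (0.90) and *Ddrgk1* (0.88), and *Becn1* like *Rnf19b* (0.87) and *Vsig2* (0.86). *Gabarapl1* was most like *Prpf6* (0.87) and *Tbc1d17* (0.86), *Lamp2* like *Cetn3* (0.85) and *Ddx3x* (0.84), and *Bnip3l* like *Smg6* (0.85) and *Cul4b* (0.83). *Ulk1* with *Git1* (0.81) and *Dab2ip* (0.80) and *Atg5* with *Trmt1l* (0.81) and *Stk16* (0.79) had the lowest values. Without acute Doxo replicate 6 these pairs ranged from *Sqstm1* with *Psmd4* (0.95) to *Atg5* with *Stk16* (0.72), and *Lamp2* with *Ddx3x* had 0.74. Over the 17 chronic hearts the same pairs ranged from *Sqstm1* with *Psmc1* (0.89) to *Becn1* with *Vsig2* (−0.54). The chronic values were not repeated without Doxo replicate 2, which stood far above its group for *Sqstm1* and *Gabarapl1*.

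In the chronic study, none of the 10 members passed in any comparison, at day 60. The Doxo vs. Ctrl comparison passed 0 of 10 where 0.0602% of all 14960 tested genes passed (9 genes), Doxo-NMN vs. Doxo 0 of 10 where 0.00% did (0 genes with edgeR, DESeq2 or limma voom, and 441, 636 and 1552 genes, in that order, at an unadjusted p under 0.05), and Doxo-NMN vs. Ctrl 0 of 10 where 0.0401% did (6 genes). At an unadjusted p under 0.05 the members counted 0, 1 and 0, where 1174, 441 and 707 of all 14960 genes did, the 1 being *Tfeb* in Doxo-NMN vs. Doxo (log2 fold change 0.26 ± 0.10, unadjusted p = 0.0126, adjusted p = 0.999). DESeq2 and limma voom also passed 0 members in each of the 3 comparisons. *Tfeb* had 46.7, 50.4, 51.7, 40.1, 56.0 and 48.8 CPM in the 6 Doxo-NMN hearts, 4 of them above the highest of the Doxo hearts, which ranged from 33.8 to 47.0 CPM (median 39.8), and 49.4, 39.9, 40.1, 46.2 and 42.7 CPM in Ctrl hearts.

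For *Sqstm1*, *Gabarapl1* and *Map1lc3b*, a single chronic Doxo heart stood far above the others. *Sqstm1* was 382, 425, 475, 490 and 522 CPM in the Ctrl hearts, and 432 to 521 CPM in 5 Doxo hearts but 1336 CPM in replicate 2. *Gabarapl1* was 71.6, 74.0, 84.9, 89.7 and 96.1 CPM in Ctrl hearts, 80.5 to 96.9 CPM in those 5 Doxo hearts and 267 CPM in replicate 2. *Map1lc3b* was 145, 178, 193, 195 and 188 CPM in Ctrl hearts, 165 to 198 CPM in the 5 Doxo hearts and 292 CPM in replicate 2. The log2 fold changes of Doxo vs. Ctrl were 0.42 ± 0.23 for *Sqstm1*, 0.51 ± 0.25 for *Gabarapl1* and 0.16 ± 0.13 for *Map1lc3b*. Without replicate 2 they were 0.03, 0.09 and 0.02. *Lamp2* did not rest on this heart: it was 78.7, 128, 110, 96.4 and 118 CPM in Ctrl hearts and 112 to 123 CPM in the other 5 Doxo hearts, with a log2 fold change of 0.20 (adjusted p = 0.661) and 0.17 without replicate 2. With any 1 chronic heart left out, the log2 fold change ranged from 0.11 to 0.28 for *Lamp2* and from −0.01 to 0.22 for *Ulk1*. In Doxo replicate 2 *Ulk1*, *Atg7*, *Bnip3l* and *Lamp2* were also above, and *Tfeb* and *Atg5* below, the other 5 Doxo hearts. Its red blood cell markers summed to 16.2 CPM against 183 to 355 CPM in the others, and its neutrophil markers to 8.90 against 1.86 to 4.41 CPM.

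No chronic difference passed, but with so few hearts per group the intervals do not show all of them to be small. The 95% intervals of the log2 fold change of Doxo vs. Ctrl were −0.11 to 0.43 for *Map1lc3b*, −0.07 to 0.90 for *Sqstm1*, −0.01 to 1.02 for *Gabarapl1*, −0.02 to 0.42 for *Lamp2* and −0.20 to 0.44 for *Ulk1*. They were −0.31 to 0.11 for *Tfeb*, −0.29 to 0.09 for *Atg5*, −0.13 to 0.22 for *Atg7*, −0.26 to 0.10 for *Becn1* and −0.09 to 0.24 for *Bnip3l*. A change of *Map1lc3b* as large as the acute one (1.25) thus lay outside its chronic interval, as did that of *Sqstm1*, whereas the chronic interval of *Gabarapl1* included its acute value of 0.98. *Gabarapl1* and *Sqstm1* with Doxo-NMN vs. Doxo had −0.48 ± 0.23 and −0.38 ± 0.22, and −0.07 and 0.00 without Doxo replicate 2.

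The effect of Doxo was compared between the regimens as an interaction over all 57 hearts. It was larger in the acute study for *Sqstm1* (difference of log2 fold changes 1.40 ± 0.36, adjusted p = 0.00521), *Map1lc3b* (1.09 ± 0.24, adjusted p = 0.00149), *Atg7* (0.47 ± 0.14, adjusted p = 0.0125) and *Becn1* (0.36 ± 0.10, adjusted p = 0.00791). The decrease of *Atg5* was also larger in the acute study, at −0.42 against −0.10 (difference −0.32 ± 0.12, adjusted p = 0.038). These are 5 of 10 members, 4 higher and 1 lower, where 12.98% of all 15152 tested genes were higher and 10.6% lower. *Lamp2* (0.34, adjusted p = 0.0509), *Ulk1* (0.36, 0.0912), *Tfeb* (−0.51, 0.125), *Bnip3l* (0.20, 0.165) and *Gabarapl1* (0.48, 0.218) did not pass. Without chronic Doxo replicate 2, *Gabarapl1* (0.89, adjusted p = 0.00645), *Lamp2* (0.37, 0.0308) and *Ulk1* (0.44, 0.0377) passed too, giving 8 of 10, and without acute Doxo replicate 6 *Tfeb* (−0.60, 0.0484) and *Lamp2* (0.38, 0.0101) did, giving 7. In each of these 2 fits 61 of 136 other pathway genes, described below, passed, beside 34 higher and 13 lower with all hearts. Counts over all genes are not given for these fits, so a general gain in calls cannot be told apart.

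For NMN the interaction passed for *Map1lc3b* alone, whose decrease in Doxo-NMN vs. Doxo was larger in the acute study by 0.83 ± 0.23 on the log2 scale (difference −0.83, adjusted p = 0.0266). That is 1 lower and 0 higher of 10 members, where 3.54% of all genes were lower and 2.55% higher. Leaving out acute Doxo replicate 6 gave 3 members (*Map1lc3b*, *Atg7* and *Bnip3l*), and leaving out chronic Doxo replicate 2 gave *Map1lc3b*, *Sqstm1* (−1.005, adjusted p = 0.0421) and *Bnip3l* (−0.35, 0.0294). Other pathway genes passing also rose in these fits, to 26 and 28 of 136, from 6 higher and 6 lower with all hearts. Counts over all genes are not given for these fits. Age, dose schedule and site differ with the regimen, so none of these differences can be assigned to the schedule of Doxo or NMN.

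The wider pathway was read from 13 lists of 146 genes, 136 of them not members, all of which were tested. Counts given for a single list include any members it holds. The examples named are, for each list, the most significant non-member that rose and the most significant that fell, and others may have larger fold changes. In acute Doxo vs. Ctrl, 72 of the 136 rose and 29 fell, where 34.8% of all genes were higher and 33.3% lower, with a median log2 fold change of 0.19 beside −0.00 over all genes. In the initiation complex, *Atg13*, the ULK1 partner, rose by 1.35 ± 0.12 (adjusted p = 3.2e-11) and *Ulk2* was at −0.19 ± 0.07 (adjusted p = 0.011), with 4 of 5 genes higher and 1 lower (*Ulk2*). In the lipid kinase complex 5 of 8 rose and 2 fell, among them *Ambra1* (0.61), a Beclin 1 partner, and *Rubcn* (−0.62), which restrains autophagosome maturation. Of the 9 membrane supply genes 4 rose, among them *Wdr45b* (0.30), and 1, *Tmem41b* (−0.21), fell. Of the 10 conjugation enzymes 4 rose and 3 fell, with *Atg3* (0.31), the E2-like enzyme, and *Atg4d* (−0.48), an ATG8 protease, as the non-members of smallest adjusted p.

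The ATG8 family was the list with the largest median, 0.90, and all 5 of its genes rose in acute Doxo hearts, *Map1lc3a* by 0.90 ± 0.10 (adjusted p = 2.43e-09). The members *Map1lc3b* and *Gabarapl1*, reported above, are among these 5. Cargo receptors had 5 of 6 higher, *Tax1bp1* at 0.69 ± 0.08, and *Ncoa4*, the receptor for ferritin, was lower at −0.43 ± 0.07 (adjusted p = 1.33e-06). Of 8 mitophagy genes 5 rose and 1 fell: *Bnip3*, the close relative of *Bnip3l*, rose by 2.10 ± 0.20 (adjusted p = 7.49e-11), against 0.28 for *Bnip3l*, and *Fundc1* fell (−0.38). Fusion genes had 8 of 12 higher, such as the SNARE gene *Vamp8* (0.97), and 2 lower, such as *Snap29* (−0.28).

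The counts of the lysosome lists stand beside 34.8% of all genes higher and 33.3% lower in this comparison. Membrane proteins had 6 of 8 higher and 1 lower, with *Cd63* at 1.06 ± 0.13 and the cystine transporter *Ctns* at −0.28 ± 0.09, and 10 of 15 proton pump genes rose and 2 fell, with *Atp6v1c1* at 0.43 and *Atp6v1a* at −0.50. Of 31 hydrolases 11 rose and 9 fell, near the shares over all genes, with a median of 0.00. *Ctsl*, the protease cathepsin L, rose by 1.68 ± 0.17 (adjusted p = 3.35e-10) and *Manba*, a mannosidase, fell (−0.89 ± 0.10, adjusted p = 1.04e-09). Among 6 transcription factors none rose and 3 fell: *Tfeb*, *Zkscan3* (−0.70 ± 0.12), a repressor of autophagy genes, and *Tfe3* (−0.25), the last named after its value was seen. Of 23 mTORC1 and AMPK signalling genes 13 rose and 5 fell, with *Rragc* (0.42), a Rag GTPase, and *Mlst8* (−0.93 ± 0.17), an mTOR subunit, having the smallest adjusted p in each direction.

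**Figure D4:**
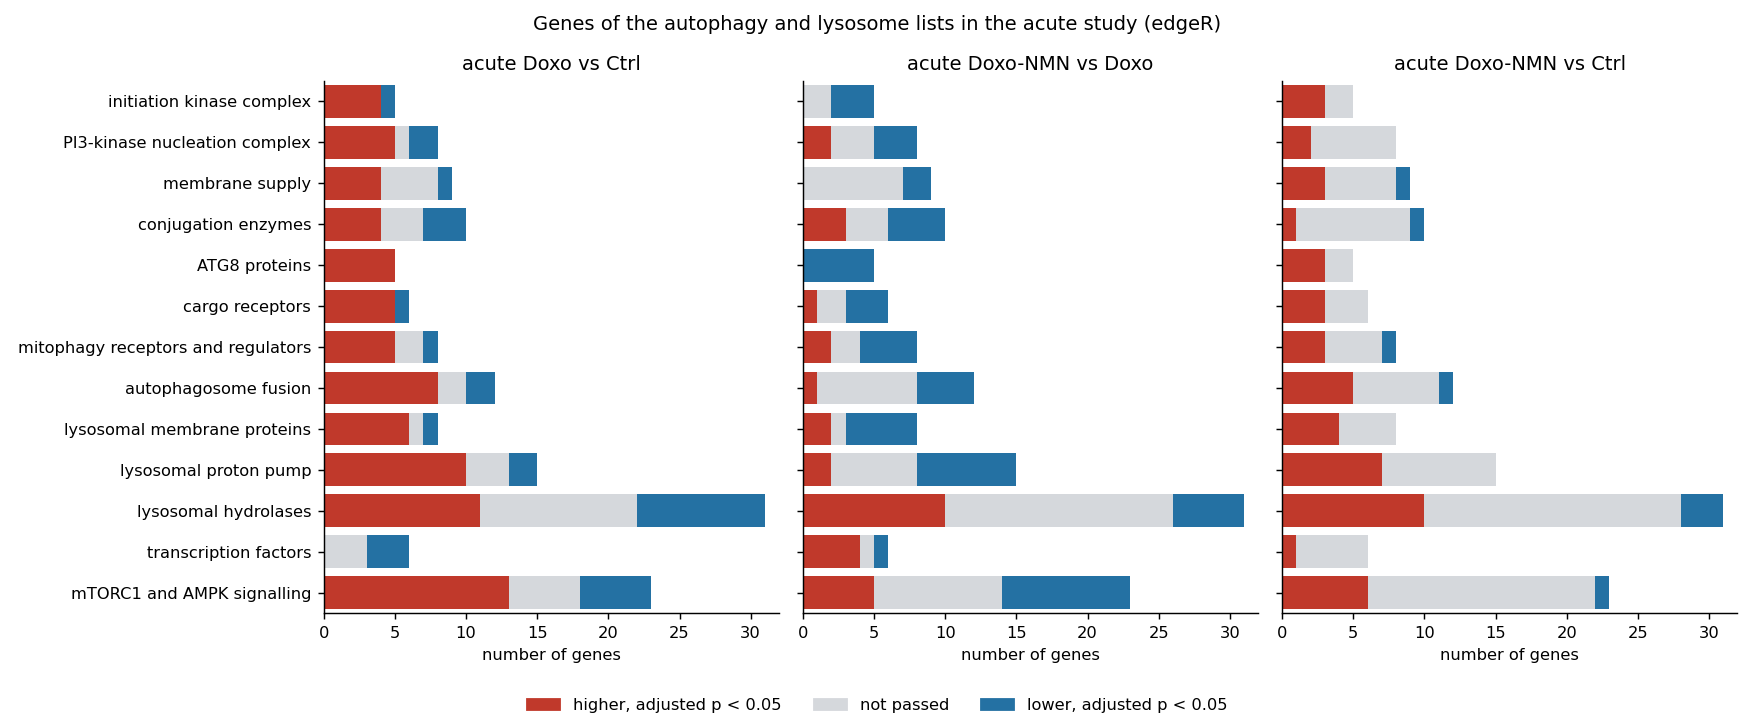
Number of genes of each of the 13 autophagy and lysosome lists, members included, that were higher (red), lower (blue) or did not pass (grey) in the 3 acute comparisons. All 5 ATG8 genes were higher in Doxo vs. Ctrl and lower in Doxo-NMN vs. Doxo. Of 31 hydrolases 11 were higher and 9 lower in Doxo vs. Ctrl, where 34.8% and 33.3% of all genes were. In Doxo-NMN vs. Doxo 10 were higher and 5 lower, where 25.7% and 27.4% of all genes were.

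In Doxo-NMN vs. Doxo, 47 of the 136 other pathway genes were lower and 30 higher, where 27.4% of all genes were lower and 25.7% higher. In Doxo-NMN vs. Ctrl 48 were higher and 7 lower, where 14.95% of all genes were higher and 11.1% lower. The median log2 fold changes of the 136 were −0.05 and 0.11, beside −0.00 and 0.01 over all genes. All 5 ATG8 genes, members included, were lower with NMN than without it, *Map1lc3a* by −0.29 ± 0.10 (adjusted p = 0.0185), and 3 of the 5 were still higher than in Ctrl. *Bnip3* (−1.23 ± 0.20) and *Ctsl* (−1.13 ± 0.17) had the largest decreases among the named genes, and both stayed higher than in Ctrl (0.87 and 0.55). *Atg13* was lower with NMN (−0.68) and higher than in Ctrl (0.67). *Rubcn* (0.71), *Manba* (0.68), *Zkscan3* (0.58) and *Mlst8* (0.97) were higher with NMN than without it, and none of these 4 passed against Ctrl. No gene of the lists passed in a chronic comparison, where 4 of the 136 in Doxo vs. Ctrl had an unadjusted p under 0.05, beside 1174 of all 14960 genes; *Atg13* had 0.43 ± 0.20 (adjusted p = 0.624) there and *Cd63* 0.33 ± 0.11 (adjusted p = 0.547).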

How the data were processed

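The files held counts of reads per gene that the authors deposited without normalization, 1 table for acute and 1 for chronic hearts. Per the labels, reads were aligned with STAR 2.7.3a to mm10 and counted with featureCounts 2.0.0, and the strand setting is not given in the sources used here. Of counts from 1 to 20, a median of 73.6% were even in acute and 40.3% in chronic libraries, and halved acute counts were tried. A share of 50% would hold only if odd and even low counts were equally frequent, which need not be so.

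Each study was fitted with its 3 groups in edgeR 4.0.16 (R 4.3.3) with TMM and the quasi-likelihood F-test, as in the study's methods, after filterByExpr and with Benjamini-Hochberg adjustment over all tested genes, which were chosen here. SE is the log2 fold change divided by the root of F. A gene passed at an adjusted p under 0.05. Differences between studies were an interaction over 57 hearts. Scripts were tested on simulated data. Replicates were separate mice, and no pair of hearts of the same group agreed within sampling noise (247 acute and 40 chronic pairs). Pairs across groups were not checked. Gene lengths and positions are from GENCODE on GRCm38. DESeq2 1.42.0, limma 3.58.1 voom, other normalizations and filters, a replicate block, atrial splits and left-out hearts were alternatives, and the interaction without chronic Doxo replicate 2 and the marker counts without acute Doxo replicate 6 were chosen after seeing the data.

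Members and lists were chosen with earlier results of these data known. Named were all members, for each list the most significant non-member higher and the most significant lower in acute Doxo vs. Ctrl, any list gene that passed in a chronic comparison, and the pair of genes most correlated with each member (log2 CPM, prior count 2, group means subtracted).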

Additional observations from a re-analysis of the deposited data

Results flagged for a closer look

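In groups of 4 to 10 hearts, a highest or lowest value was picked out where its gap to the nearest other heart exceeded the 95% critical share of the range in Dixon's test. Of 30 groups of a member tested, 6 held such a heart, and chance gives about 1 in 20. Chronic Doxo replicate 2 accounted for 4 of them, with 1336 CPM of *Sqstm1*, 267 CPM of *Gabarapl1*, 292 CPM of *Map1lc3b* and 53.5 CPM of *Bnip3l*. Of the others, *Becn1* was at 35.1 CPM in chronic Ctrl replicate 1 (42.7 to 44.7 CPM in the other 4) and *Map1lc3b* at 155 CPM in chronic Doxo-NMN replicate 4 (190 to 206 CPM in the other 5). The acute groups held over 10 hearts and were not tested this way.

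Differences between acute and chronic hearts in the log2 fold change of Doxo vs. Ctrl passed the interaction test for *Sqstm1* (1.40), *Map1lc3b* (1.09), *Atg7* (0.47), *Becn1* (0.36) and *Atg5* (−0.32). In Doxo-NMN vs. Doxo the difference passed for *Map1lc3b* (−0.83). Each is given with its error in the report, and the sites, ages and regimens that differ with the study cannot be told apart.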

How the results depend on the processing

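No member changed direction among those called under any alternative run. In acute Doxo vs. Ctrl 10 of 10 members passed under each alternative and each left-out heart, and in Doxo-NMN vs. Doxo 10 with any heart left out and 8 to 10 otherwise. The count in acute Doxo-NMN vs. Ctrl was the least stable: 4 as reported, 8 with limma voom, 7 when only these 2 groups were fitted, 0 among hearts with *Myl4* under 100 CPM, 0 among those at or above it, and 3 to 7 with 1 heart left out (3 without Doxo-NMN replicate 10, 7 without Doxo replicate 6). The count over all tested genes moved too: 3705 of 14240 as reported, 5889 of 14240 with limma voom and 5523 of 13916 with these 2 groups. Among hearts with *Myl4* under 100 CPM it was 1124 of 14265, and among the rest 1345 of 14743. For the other pathway genes in this comparison the atrial subsets gave 18 and 14 instead of 55, with fewer hearts in each fit. Members passed in no chronic comparison under any alternative, and limma voom passed 1 other pathway gene in Doxo-NMN vs. Ctrl. The interaction for Doxo passed 7 members without acute Doxo replicate 6 and 8 without chronic Doxo replicate 2, against 5. In each of these 2 fits 61 other pathway genes passed. The interaction for NMN passed 3 and 3 against 1, and 26 and 28 other pathway genes against 12. Counts over all tested genes are not given for fits with 1 heart left out. *Atg5* lost its Doxo interaction with only Ctrl and Doxo hearts fitted (adjusted p = 0.0599). The causes were not tested.

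Same-numbered hearts had correlations of −0.62 to 0.58 in 39 acute pairs (18 over 0.1) and −0.25 to 0.41 in 16 chronic pairs (4 over 0.1). Hearts of different numbers were not compared, so these values cannot show whether replicate numbers pair hearts. With a replicate block 10, 10 and 4 members passed in the acute comparisons and 0 in each chronic one, the same counts as without it. Over all 14213 acute genes tested that way 9380, 7424 and 3460 passed, and over 14804 chronic genes 6, 0 and 4.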
